A study of Xenopus laevis with 16 samples.

Results

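Fibroblast growth factor 8, its partner ligand FGF10, the 4 FGF receptors and the feedback genes sprouty 1, sprouty 2 and dusp6 were followed in amputated hindlimbs of the frog Xenopus laevis. A probe set, the group of short oligonucleotides that reads 1 transcript on an Affymetrix array, was taken where the platform annotation gave it exactly 1 gene symbol and that symbol, without its ending, was one of these 9. Symbols in this species end in .L or .S for the long and short copies of each chromosome pair. The rule found 15 of 15491 probe sets, which belong to 10 of 7531 named genes and cover 8 of the 9 symbols. These were fgf8.L with 3 probe sets, fgf10.S, fgfr2.L and fgfr4.L with 2 each, and fgfr1.L, fgfr3.S, fgfr4.S, spry2.L, spry2.S and dusp6.L with 1 each. No probe set with 1 symbol was found for spry1, and none for fgf8.S, fgf10.L, fgfr1.S, fgfr2.S, fgfr3.L or dusp6.S. A further probe set that carries both spry2 symbols lies outside the rule.

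The arrays form 4 groups of 4: stage 57 at 5 days, stage 57 at 1 day, stage 53 at 5 days and stage 53 at 1 day after amputation. Tadpoles of both stages lost a hindlimb, or both, through the middle of the lower leg, and the tissue assayed lay within 1 mm proximal to the cut. The series' design text calls the stage 53 limbs able to regenerate and the stage 57 limbs unable to. The stage comparison sets such limbs side by side at the same time after injury. Developmental stage and regenerative capacity differ together between these groups, and the design cannot tell them apart. No unamputated limb is among the groups, so a level after amputation cannot be set against one before it. No strain, genotype or treatment other than amputation is named in the labels. The labels do not say whether replicates are different animals, and p-values then cover only the spread among these arrays, which may be technical. Array codes run in consecutive blocks by group, and an effect of their order cannot be told apart from stage and day.

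In vertebrate limb buds FGF8 is made by the apical ectoderm, the thickened epithelium at the limb tip, and keeps the mesenchyme beneath it growing. FGF10 is made by that mesenchyme and acts back on the ectoderm, so each ligand sustains the other. Both act through receptor tyrosine kinases that switch on the RAS and ERK kinase cascade. Sprouty proteins block this cascade near the receptor, and DUSP6 is a phosphatase that removes the activating phosphates of ERK. Their genes are switched on by the same cascade that their products restrain, and they are commonly read as markers of FGF signalling in limb buds. FGF8 and FGF10 are also known from the wound epidermis and blastema of regenerating amphibian limbs.

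Values are MAS5 signals, and tests were made on their log2 scale, where a difference of 1 is a doubling. Probe sets were tested where their mean log2 signal over all arrays exceeded 6.60, the 25th percentile, which 11618 did. Of the 15 probe sets, 9 passed and 6 did not. The probe sets of fgf8.L and dusp6.L that passed did so through the arrays of stage 53 at 5 days, since the mean of the other 12 arrays was 6.50 for fgf8.L and 6.25 for dusp6.L. Counts over the probe sets that passed are therefore descriptions. A call is a Benjamini-Hochberg adjusted p below 0.05 in limma, over all probe sets tested. Of the 16 arrays, 3 stood apart: replicate 2 of stage 57 at 5 days and replicates 2 and 3 of stage 57 at 1 day. Signal of the 3′ actin control over that of the 5′ one, a sign of RNA quality, was 4.70 to 5.72 on the log2 scale, against 0.01 to 2.38 on the other 13. The same ratio of the GAPDH control was 5.46 to 7.33 on these 3 and 3.63 to 5.22 on the other 13, a narrower gap. The 3 are called the high-ratio arrays here, and results are given with and without them. In bulk tissue, fewer cells of a type and less RNA per cell cannot be told apart.

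The ligand gene fgf8.L was lower at stage 57 than at stage 53 at 5 days after amputation. Its brightest probe set, whose name ends in S1_at, had signals of 38.1, 92.5, 53.4 and 125.6 at stage 57 at 5 days, against 292.0, 278.0, 381.1 and 304.4 at stage 53 at 5 days. The highest stage 57 array lay below the lowest stage 53 array. The difference was -2.16 (SE 0.47, n = 4 each, limma adjusted p = 0.00996), or 4.47-fold lower. It was called under all 25 alternatives of processing that kept the probe set. The differences there were -2.44 to -1.23, with adjusted p-values of 2.90e-04 to 0.0383. The 50th percentile filter dropped this probe set and those of spry2.L, spry2.S and dusp6.L, so it could not test them. This probe set passed the low-signal filter only through the arrays of stage 53 at 5 days. For fgf8.L that filter was therefore not independent of the difference tested. The stage 57 signals of 38.1, 92.5 and 53.4 lie below 97.1, the low-signal cutoff, so the fold rests on low signals. It was -2.30 without the high-ratio arrays (adjusted p = 0.00175).

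At 1 day the same probe set read 57.1, 85.9, 254.6 and 80.1 at stage 57, against 67, 110.3, 137.8 and 120.9 at stage 53. The groups overlapped, and the stage 57 array of 254.6 is a high-ratio array. The stage difference at 1 day was -0.07 (95% CI -1.06 to 0.91, adjusted p = 0.945) with all arrays and -0.64 (95% CI -1.62 to 0.34, adjusted p = 0.671) without the high-ratio arrays. From the lowest mean log2 signal to the highest, fgf8.L read 6.12 ± 0.77 at stage 57 at 5 days, 6.64 ± 0.93 at stage 57 at 1 day, 6.72 ± 0.45 at stage 53 at 1 day and 8.28 ± 0.20 at stage 53 at 5 days (SD, n = 4 each). The last group stood clear of the other 3 in every array, while those overlapped. Within stage 53, fgf8.L was 1.56 higher at 5 days than at 1 day (SE 0.47), which did not pass with all arrays (adjusted p = 0.192).

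The other fgf8.L probe sets were dim. The probe set ending in S1_a_at had 28.3, 24.0, 16.5 and 18.5 at stage 57 at 5 days, against 123.2, 110.4, 36.6 and 142.4 at stage 53 at 5 days. Its groups did not overlap either, and its difference of -2.10 did not pass in the fit with no filter on low signals (adjusted p = 0.0696). Its range was 9.1 to 52.0 at stage 57 at 1 day and 12.2 to 38.6 at stage 53 at 1 day. The probe set ending in A1_at ranged from 18.6 to 89.2 at stage 57 at 5 days and from 12.1 to 165.0 at stage 53 at 5 days, so this probe set showed no separation of the stages. No detection calls were used, so signals this low are not separated from background.

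FGF10, the mesenchymal ligand, was read by a pair of dim fgf10.S probe sets. The probe set ending in S1_at had 70.3, 6.3, 13.0 and 6.9 at stage 57 at 5 days, against 86.1, 34.9, 108.9 and 110.2 at stage 53 at 5 days. At 1 day it had 7.9, 14.2, 8.1 and 38.4 at stage 57, against 10.9, 70.5, 86.1 and 23.7 at stage 53. The groups overlapped on both days. In the fit with no filter its difference was -2.46 at 5 days, which was not called, and -1.91 averaged over both days (limma adjusted p = 0.0458). That fit called 11.9% of all probe sets for the average, in either direction. The stage 57 signals of 6.3, 14.2 and 8.1 are from the high-ratio arrays, and this probe set was not tested without them. The probe set ending in A1_at had a median signal of 85.2 at stage 57 at 5 days and 120.7 at stage 53 at 5 days, with a difference of -0.37 that was not called. The probe sets of this gene thus differed in the size of the stage difference.

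Among the receptors, fgfr1.L had the clearest separation of the stages. FGFR1 is the main receptor of limb mesenchyme. Its probe set had 1073.5, 327.2, 1165.3 and 1217.8 at stage 57 at 5 days, against 1607.1, 2306.3, 1733.8 and 2247.1 at stage 53 at 5 days. All stage 57 arrays lay below all stage 53 arrays, but the difference of -1.21 (SE 0.45) did not pass (adjusted p = 0.114). Without the high-ratio arrays, one of which is the array at 327.2, it was -0.76 and passed (adjusted p = 0.0455). At 1 day the signals were 1258.5, 484.5, 306.8 and 976.6 at stage 57, against 1278.6, 788.8, 1453.4 and 1486.8 at stage 53, and the groups overlapped. The lowest 3 of the 16 arrays for this gene were the 3 high-ratio arrays.

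The fgfr2.L probe sets disagreed on those same arrays. FGFR2, in its epithelial form, is the receptor through which FGF10 acts on limb ectoderm. The probe set ending in S1_at read 3344.9 in the high-ratio array at stage 57 at 5 days, and 1923.2 and 4910.0 in those at stage 57 at 1 day, against 534.3 to 1469.1 on the other 13 arrays. The probe set ending in A1_at read 636.2, 1004.2 and 557.0 on the same 3 arrays, within the 530.5 to 1427.0 of the others. The part of RNA quality in this was not tested. The stage difference at 5 days was -0.02 (95% CI -1.18 to 1.14) for the probe set ending in S1_at and -0.52 (95% CI -1.18 to 0.14) for the one ending in A1_at, and neither was called. The values without the high-ratio arrays were -0.57 and -0.44 in the same order, again not called (adjusted p = 0.168 and 0.361). At 1 day the probe set ending in S1_at differed by 0.76 with all arrays and by -0.17 without the high-ratio ones, with no call in either fit.

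The remaining receptors gave no call between the stages. The fgfr4.S probe set ranged from 211.7 to 891.8 at stage 57 at 5 days and from 306.5 to 723.0 at stage 53 at 5 days (-0.37, 95% CI -1.18 to 0.44). The brighter fgfr4.L probe set ranged from 91.8 to 150.6 at stage 57 at 5 days and from 99.8 to 141.7 at stage 53 at 5 days (-0.08, 95% CI -1.02 to 0.86). Both intervals reach below -1. The dim fgfr4.L probe set ranged from 6.8 to 145.0 at stage 57 at 5 days and from 73.9 to 164.6 at stage 53 at 5 days. The dim fgfr3.S probe set lay between 20.8 and 118.3 over all 16 arrays, and its groups overlapped in every comparison.

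The feedback gene spry2 was lower at stage 57 at 5 days in both of its copies. The spry2.L probe set had 417.2, 134.2, 201.8 and 166.8 at stage 57 at 5 days, against 578.0, 1177.5, 855.8 and 874.8 at stage 53 at 5 days. The stages did not overlap, and the difference was -2.02 (SE 0.51, adjusted p = 0.0234), or 4.05-fold lower. This call held in 19 of 25 alternatives. It ended when replicate 2, 3 or 4 of either stage at 5 days was left out, with adjusted p-values of 0.0569 to 0.0716. The difference stayed at -2.01 to -1.81 in those fits, which called 3.51% to 6.52% of all probe sets, against 7.37% with all arrays. Without the high-ratio arrays the difference was -1.81 and was called (adjusted p = 0.00335). At 1 day spry2.L had 401.0, 53.5, 145.4 and 275.5 at stage 57, against 374.7, 411.9, 341.3 and 191.5 at stage 53, with a difference of -0.89 (95% CI -1.97 to 0.19). The lowest of these, 53.5, is a high-ratio array, and without those arrays the difference was 0.07.

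The short copy spry2.S varied least among the genes that separated the stages. Its probe set had 257.8, 281.9, 146.2 and 176.9 at stage 57 at 5 days, against 397.8, 516.2, 487.9 and 542.9 at stage 53 at 5 days. The difference was -1.21 (SE 0.26, adjusted p = 0.00856), or 2.32-fold lower, and it was called under all 25 alternatives that kept it. At 1 day the signals were 193.2, 153.4, 224.2 and 208.7 at stage 57, against 206.6, 205.0, 214.4 and 209.9 at stage 53. The 1-day groups overlapped, with a difference of -0.11 (95% CI -0.66 to 0.43). From lowest to highest, the mean log2 signals were 7.59 ± 0.24 at stage 57 at 1 day, 7.70 ± 0.45 at stage 57 at 5 days, 7.71 ± 0.03 at stage 53 at 1 day and 8.92 ± 0.20 at stage 53 at 5 days (SD, n = 4 each). The last group stood clear of the other 3, which overlapped.

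The ERK phosphatase gene dusp6.L varied widely at stage 57. Its probe set had 281.1, 22.0, 24.3 and 97.5 at stage 57 at 5 days, against 366.7, 356.0, 319.9 and 358.0 at stage 53 at 5 days. The stage 53 arrays lay close together and above all stage 57 arrays. This probe set passed the low-signal filter only through the arrays of stage 53 at 5 days. For dusp6.L, too, that filter was therefore not independent of the difference tested. The stage 57 signals of 22.0 and 24.3 lie below 97.1, the low-signal cutoff, so the size of the difference rests partly on low signals. The difference of -2.50 (SE 0.76) narrowly missed the threshold (adjusted p = 0.0533). It passed in 9 of 25 alternatives, among them the fit without the high-ratio arrays (-2.00, adjusted p = 0.0272) and the fit without replicate 1 of stage 57 at 5 days (-3.23, adjusted p = 0.0117). Leaving out any 1 stage 57 array of day 1, which acts through the shared spread, also sufficed (adjusted p = 0.0340 to 0.0498). At 1 day it had 151.3, 20.2, 23.0 and 117.3 at stage 57, against 204.9, 141.5, 93.3 and 115.4 at stage 53. The difference at 1 day was -1.31 with all arrays and 0.00 without the high-ratio arrays, which held 3 of the 4 lowest signals of this gene. The fourth, 24.3 in replicate 3 of stage 57 at 5 days, was on an array with an actin ratio of 0.90.

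**Figure D1:**
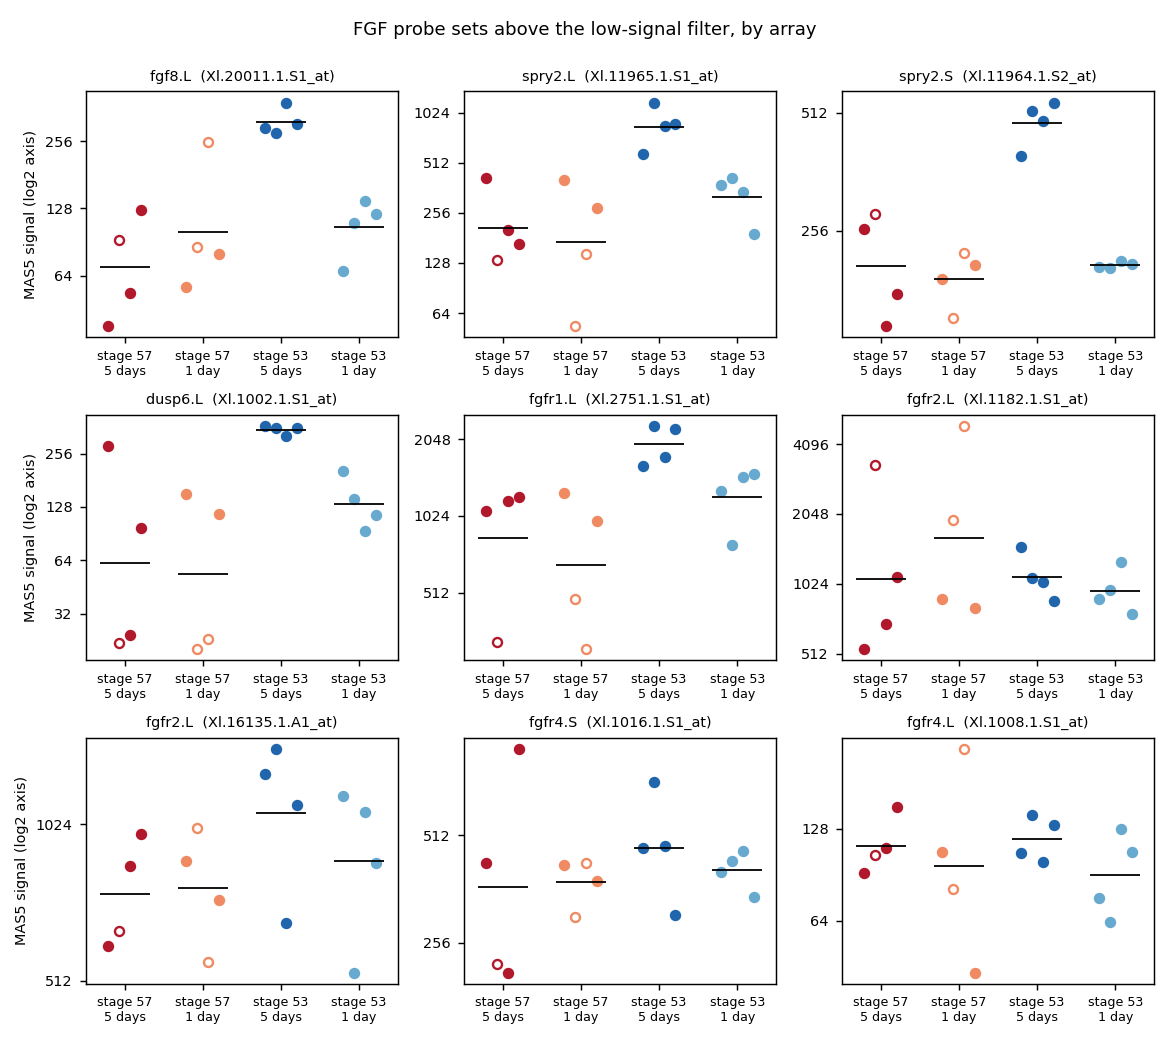
MAS5 signal (log2 axis) of the 9 FGF probe sets above the low-signal filter, in each of the 16 arrays by stage and day, with bars at the group means of log2 signal and open circles for the 3 stage 57 high-ratio arrays. For fgf8.L, spry2.L, spry2.S, dusp6.L and fgfr1.L the 4 arrays of stage 53 at 5 days lie above all 4 arrays of stage 57 at 5 days and above all 4 of stage 53 at 1 day.

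**Figure D2:**
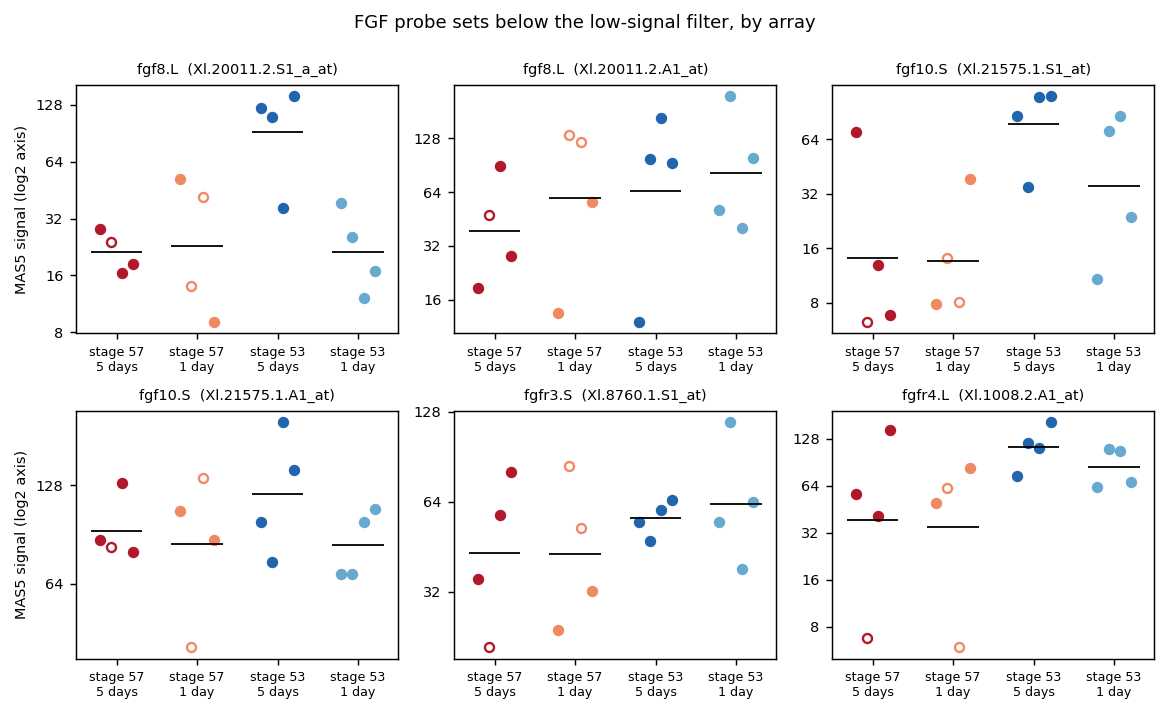
MAS5 signal (log2 axis) of the 6 FGF probe sets below the low-signal filter, drawn as for the brighter ones. One fgf8.L probe set (ending in S1_a_at) separates the stages at 5 days, with 16.5 to 28.3 at stage 57 and 36.6 to 142.4 at stage 53, and the groups of the other 5 overlap.

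Between the stages at 5 days, 3 of the 9 probe sets tested were called, all lower at stage 57, against 7.37% of all probe sets tested called in either direction and 3.48% called lower. Groups did not overlap for 5 of the 9, again all lower at stage 57, against 11.2% of all tested probe sets. With no filter, 6 of all 15 did not overlap, against 9.33%. Without the high-ratio arrays 10 were tested and 5 were called lower, against 8.27% of all. At 1 day none of the 9 was called in limma and none had an unadjusted p below 0.05, against 2.55% of all tested probe sets called and 2098 of 11618 with such a p. The stages overlapped at 1 day for all 9, while they did not for 9.19% of all tested.

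Averaged over both days, 5 of the 9 were called lower at stage 57, against 9.36% of all tested probe sets. This count too is a description, since fgf8.L and dusp6.L passed the filter only through stage 53 at 5 days. The 5 were dusp6.L at -1.90 (adjusted p = 0.0231), spry2.L at -1.45 (0.0123), fgf8.L at -1.12 (0.0291), fgfr1.L at -1.05 (0.0321) and spry2.S at -0.66 (0.020). The average joins both days and does not show a lower level on each. At 1 day, where none was called, the differences were -1.31, -0.89, -0.07, -0.89 and -0.11 in the same order. They were 0.00, 0.07, -0.64, -0.13 and -0.06 without the high-ratio arrays. In that fit the averages of dusp6.L (-1.0, adjusted p = 0.129) and fgfr1.L (-0.45, adjusted p = 0.112) no longer passed. Single arrays also ended calls of this average. For fgfr1.L any 1 of 8 arrays did so (adjusted p up to 0.0684): replicates 2 and 3 of stage 57 at 1 day, 2, 3 and 4 of stage 53 at 5 days, and 1, 3 and 4 of stage 53 at 1 day. For fgf8.L it was any 1 of 7 (up to 0.0616): replicates 1 and 3 of stage 57 at 5 days, 2 of stage 57 at 1 day, and 3 and 4 of stage 53 on either day. Leaving out replicate 2 of stage 57 at 1 day or replicate 3 of stage 57 at 5 days ended that of dusp6.L (0.0508 and 0.0505). With replicate 2 of stage 57 at 1 day left out, 2 of the 5 remained past the threshold.

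**Figure D3:**
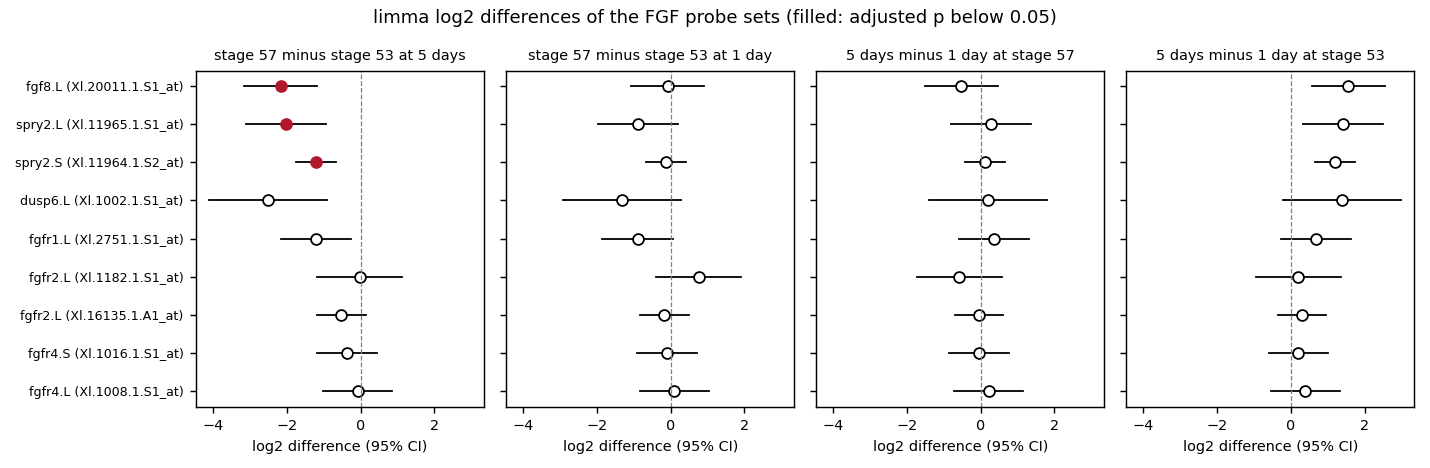
Log2 differences from limma with 95% confidence intervals for the 9 FGF probe sets in 4 comparisons, with filled points for adjusted p below 0.05. The filled points are fgf8.L (-2.16), spry2.L (-2.02) and spry2.S (-1.21) between the stages at 5 days.

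The change with time after amputation was compared within each stage. At stage 53 the 5-day arrays lay above the 1-day arrays without overlap for 5 of the 9 probe sets, against 6.17% of all tested. These were the genes fgf8.L (1.56), spry2.L (1.41), dusp6.L (1.40), spry2.S (1.21) and fgfr1.L (0.68). None was called in limma with all arrays, against 0.121% of all tested probe sets called, and 3 had an unadjusted p below 0.05, as did 9.56% of all. The nearest was spry2.S (SE 0.26, adjusted p = 0.0676). Without the high-ratio arrays, all of which are stage 57 arrays and enter here through the shared estimate of the spread, fgf8.L (adjusted p = 0.0344), spry2.L (0.0293) and spry2.S (0.0122) passed, against 1.32% of all called higher. In the fit on stage 53 arrays alone these and dusp6.L (adjusted p = 0.0278) passed, against 1.04% of all called higher. Leaving out replicate 3 of stage 57 at 1 day or replicate 2 of stage 57 at 5 days was enough for spry2.S to pass (adjusted p = 0.0402 and 0.0448). This comparison and the stage comparison at 5 days share the arrays of stage 53 at 5 days. Only through those arrays did fgf8.L and dusp6.L pass the low-signal filter.

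At stage 57 none of the 9 probe sets was called between 5 days and 1 day in limma and none had an unadjusted p below 0.05, with 0% of all tested probe sets called and 2.04% having such a p. The differences were -0.52 for fgf8.L (95% CI -1.51 to 0.47), 0.28 for spry2.L (-0.80 to 1.36), 0.11 for spry2.S (-0.43 to 0.65) and 0.21 for dusp6.L (-1.39 to 1.81). Of these 4 intervals only that of spry2.S lies within 1 of zero on both sides. With the high-ratio arrays left out the values were -0.09 for fgf8.L, -0.46 for spry2.L, -0.09 for spry2.S and -0.61 for dusp6.L, so the last 3 changed sign, and none was called. The difference between the stages in the change from 1 to 5 days was tested as an interaction. It was -2.08 for fgf8.L (SE 0.66, unadjusted p = 0.00589, limma adjusted p = 0.997) and -1.10 for spry2.S (SE 0.36, unadjusted p = 0.00757, adjusted p = 0.997). None of the 9 was called, against 0.0258% of all, and 2 had an unadjusted p below 0.05, against 3.97% of all. A time course that differs between the stages was therefore not shown for any of these genes.

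**Figure D4:**
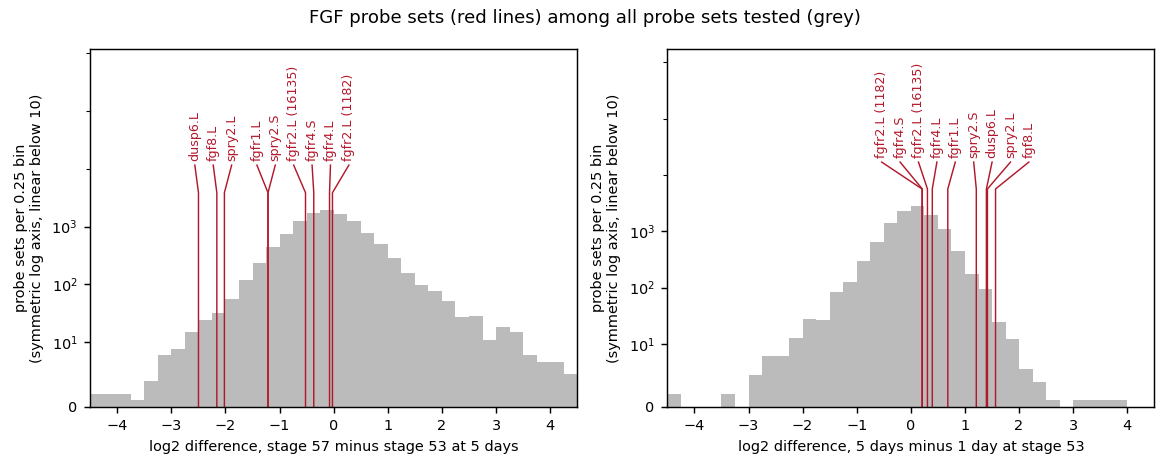
Distribution of log2 differences over the 11618 probe sets tested (grey, symmetric log axis), for stage 57 minus stage 53 at 5 days on the left and 5 days minus 1 day at stage 53 on the right, with red lines at the 9 FGF probe sets. The axes are cut at 4.5 on either side, and the medians of all probe sets are -0.10 and 0.07.

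Other genes of the FGF pathway did not share one direction. A list of 79 further symbols, covering other ligands, heparan sulfate enzymes, adaptors, the kinase cascade and its target genes, had 28 symbols on the array and 27 genes with a tested probe set. At 5 days 4 of the 27 were called higher at stage 57, against 3.89% of all tested probe sets, and 1 lower, against 3.48%. The other 22 were not called, and the median difference was 0.05, against -0.10 over all probe sets tested. At 1 day 2 were called higher and 1 lower, against 181 higher and 115 lower of all 11618 tested. Averaged over both days 4 were called higher and 3 lower, against 843 higher and 1088 lower of all 11618 tested. These 7 were the only ones of the 27 called in any comparison.

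The 4 higher genes at 5 days were targets or adaptors of growth factor signalling in general. The immediate early transcription factor gene myc.S had 2265.2, 5726.1, 2328.3 and 2532.6 at stage 57 at 5 days, against 487.7, 630.6, 282.2 and 146.0 at stage 53 at 5 days (3.14, SE 0.50, adjusted p = 0.00110). Its copy myc.L differed by 2.32 (adjusted p = 0.0110). Both are read by probe sets whose names end in x_at, which marks probes that can match other transcripts. The early response gene egr1.L had 2540.6, 3238.5, 3093.7 and 3540.3 at stage 57 at 5 days, against 1140.9, 1089.9, 778.2 and 611.2 at stage 53 at 5 days (1.81, adjusted p = 0.0247). The receptor adaptor gene grb2.L differed by 1.21 (adjusted p = 0.0234), while its copy grb2.S differed by 0.37 and was not called (adjusted p = 0.332). Growth factor signalling through ERK can induce egr1 and myc, as other inputs can. At 5 days egr1.L and both myc copies were higher at stage 57, and spry2 was lower. Whether ERK signalling differed between the stages was not tested.

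Lower at stage 57 was sulf2.L, which encodes an extracellular enzyme that trims sulfate from heparan sulfate, the co-receptor of FGFs. It had 1293.9, 749.2, 673.4 and 1095.3 at stage 57 at 5 days, against 1771.0, 2133.2, 2095.0 and 2773.7 at stage 53 at 5 days (-1.24, adjusted p = 0.0150). It was also lower at 1 day (-1.18, adjusted p = 0.0372). The ETS factor gene etv4.L, an FGF target in limb buds, differed by -0.75 at 5 days without passing (adjusted p = 0.0858) and by -0.62 averaged over days (adjusted p = 0.0284). The phospholipase gene plcg1.L passed averaged over days (-1.52, adjusted p = 0.0318) and reached -1.29 at 5 days (adjusted p = 0.251). Its copy plcg1.S was not called at 5 days (-0.70, adjusted p = 0.285) or averaged over days (-0.28, adjusted p = 0.482). For etv4.L and plcg1.L all stage 57 arrays at 5 days lay below all stage 53 arrays, as for 11.2% of all tested probe sets. The signals were 1092.5 to 1957.5 against 2306.3 to 2655.0 for etv4.L, and 83.9 to 229.1 against 314.4 to 396.8 for plcg1.L. Neither average was called without the high-ratio arrays (etv4.L -0.44, adjusted p = 0.0937, and plcg1.L -0.57, adjusted p = 0.0652). Without the high-ratio arrays 5 of the 27 were higher and 3 lower at 5 days, plcg1.L among the lower (-1.01, adjusted p = 0.0190). Of all 11618 probe sets, 876 were called higher and 961 lower in that fit. At 1 day 0 of 27 were called, against 167 higher and 79 lower of all. There myc.S had an adjusted p of 0.148, myc.L of 0.212 and sulf2.L of 0.213, where limma with all arrays had called them.

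**Figure D5:**
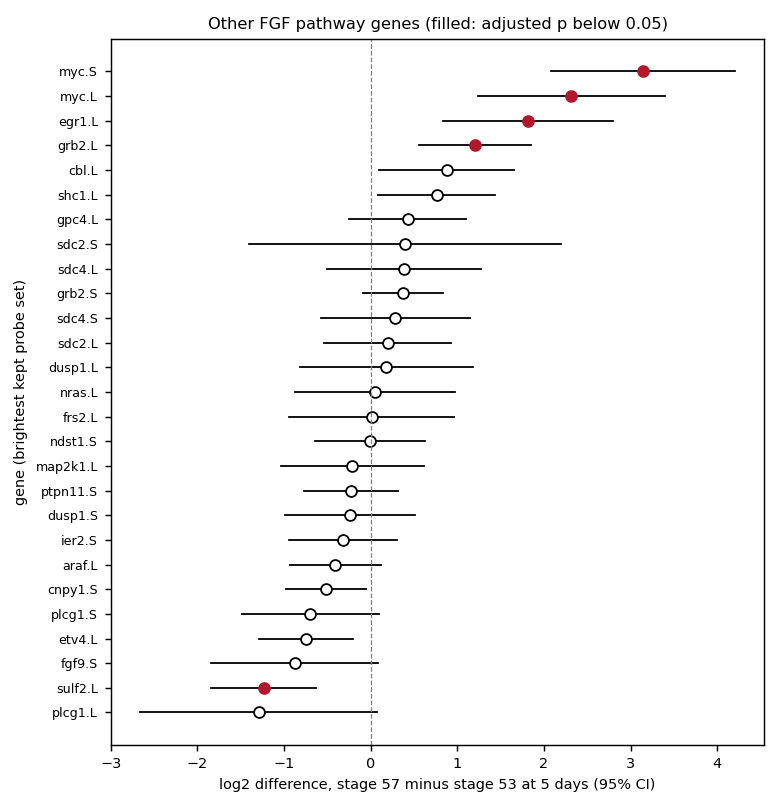
Log2 difference, stage 57 minus stage 53 at 5 days, with 95% confidence intervals for the 27 other FGF pathway genes, each by its brightest tested probe set, with filled points for adjusted p below 0.05. The filled genes are myc.S, myc.L, egr1.L and grb2.L on the positive side and sulf2.L on the negative side.

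Among genes of limb bud outgrowth that act beside FGF8, 12 of the 24 with a tested probe set were called lower at stage 57 at 5 days, against 3.48% of all tested probe sets, 0 were called higher and 12 were not called. At 1 day 4 were called lower, against 0.99% of all, 0 higher, and 20 were not called. The list was chosen with earlier results of these data known, so its counts are descriptions. The median difference at 5 days was -1.31, against -0.10 over all probe sets tested. The 4 with the smallest p over all comparisons, given here with their values at 5 days, were hand2.S, a transcription factor of the posterior limb bud (-3.43, adjusted p = 1.97e-04), tbx3.S, a T-box factor (-3.08), mycn.S, a growth regulator (-3.38), and msx1.L, a homeobox gene of undifferentiated distal mesenchyme (-2.28). For example, mycn.S had 526.3, 217.9, 402.5 and 502.8 at stage 57 at 5 days, against 3689.7, 4523.0, 3693.0 and 4388.2 at stage 53 at 5 days. Without the high-ratio arrays 19 of 26 were lower at 5 days, against 8.27% of all, and 9 of 26 at 1 day, against 79 of 11618. In that fit tbx3.S (adjusted p = 0.0731) and msx1.L (0.0930) no longer passed at 1 day.

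Markers of the tissues in the sample also moved with stage. At 5 days 3.89% of all tested probe sets were called higher at stage 57 and 3.48% lower. Of 15 skeletal muscle genes 13 were called higher at stage 57 at 5 days. Their summed signal was 36341 to 110974 at stage 57 against 12495 to 12979 at stage 53. The epidermal list marks epidermis in general and not the apical ectoderm, which makes FGF8 in limb buds. Of its 12 genes 0 were called at 5 days. Their summed signal was 41226 to 53570 at stage 57 and 50872 to 74862 at stage 53, and 2 of the 12 were called lower without the high-ratio arrays. Of 6 limb mesenchyme genes 2 were lower, msx1.L and pitx1.L, with summed signals of 2095 to 3163 at stage 57 and 4867 to 6814 at stage 53. Both called genes are also in the limb outgrowth list above, so they are not a separate result. Among the other lists at 5 days, 1 of 7 cartilage genes and 2 of 7 nerve and Schwann cell genes were higher. None was called of 5 myeloid, 5 erythroid and 3 endothelial genes, and in lists this short that is near the shares of all probe sets. The fit that leaves out the high-ratio arrays called 876 of 11618 probe sets higher and 961 lower. There 4 of 6 limb mesenchyme and 3 of 5 erythroid genes were lower, and 3 of 7 cartilage and 1 of 3 endothelial genes were higher. Of 7 nerve and Schwann cell genes 3 were higher and 1 lower, 13 of 15 muscle genes were higher and 0 of 5 myeloid genes were called. No marker was at 0, since no deposited signal was below 0.6. The part of these tissues in the FGF gene differences was not tested.

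The genes whose pattern was most like that of each FGF gene were ranked by Pearson correlation of log2 signal over the 16 arrays, among 5045 probe sets brighter than the median with 1 informative symbol. These values describe arrays that share stage, day and array quality. For fgf8.L they were sall1.L, a zinc finger gene of the limb bud (r = 0.886), rcor2.L (0.858), sinhcaf.L (0.842), zic2.L (0.839) and the unnamed gene XB5796436.L (0.838). For spry2.L they were kansl2.S (0.920), tspan7.L (0.919) and impdh2.L (0.904), and for dusp6.L chn1.L (0.928), pspc1.L (0.914) and orc3.S (0.911). Over the 13 arrays without the high-ratio arrays the same pairs ran from 0.834 to 0.875 for fgf8.L, from 0.862 to 0.951 for spry2.L and from 0.823 to 0.847 for dusp6.L. No gene appeared in more than one of the 3 rankings. Between sall1.L and fgf8.L the likeness includes the stage difference, which for sall1.L was -2.27 at 5 days (adjusted p = 0.0348).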

How the data were processed

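Total RNA was amplified with a 2-cycle kit and labelled for Affymetrix arrays of 1 colour, as the labels' protocols state. The authors deposited a linear signal intensity for each probe set, made with MAS5 per the submitters' processing notes. Its version is not given in the sources used here. The deposited intensities of each array had a mean, trimmed by 2% at each end, of about 1000. Their log2 was taken with no offset, controls were dropped, and probe sets at or below the 25th percentile of mean log2 signal were left out.

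Group means were fitted to all 16 arrays with limma 3.58.1 in R 4.3.3 (lmFit, eBayes with an intensity trend), and p-values were adjusted per comparison by Benjamini-Hochberg. The script was tested on simulated data. All 15 probe sets matched RefSeq genes by Entrez identifier. Levels of different probe sets are not compared.

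The FGF members and all gene lists were chosen with earlier results of these data known. Named genes beyond the members are the called genes of the pathway list, at most 4 of the outgrowth list by smallest p, and the 5 or 3 most similar patterns. Each list gene is read by its brightest tested probe set. Alternatives were quantile normalization, median centring, offsets of 31.3 and 101.8, no filter, a 50th percentile filter, no intensity trend, only the groups compared, and each array left out. Leaving out the 3 high-ratio arrays and array quality weights were chosen after seeing the data. No genome was used, so no coordinates or sequences are given. The number of arrays limits the precision.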

Additional observations from a re-analysis of the deposited data

Results flagged for a closer look

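In stage 57 at 5 days, fgfr1.L read 327.2 in replicate 2, while the nearest of the other 3 arrays read 1073.5. The gap between them was 0.904 of the group's whole range, above Dixon's critical value for 4 samples. Of 60 groups of arrays examined, 15 probe sets in 4 groups each, this was the 1 that stood out, and chance alone marks about 1 in 20. The array is one of the 3 high-ratio arrays.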

How the results depend on the processing

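No paired analysis was possible because the labels give no replicate numbers that groups share. Of 8 probe set differences called with all arrays, 171 of 196 values under the alternatives were still called and 0 changed sign. Of 46 not called, 23 of 1156 values were called, and 65 changed sign without a call in either fit. Between the stages at 5 days 3 of 9 FGF probe sets were called, against 7.37% of all tested. Of those called, fgf8.L passed the low-signal filter only through stage 53 at 5 days. The count was 0 with the 50th percentile filter (8.5% of all called), which left 4 probe sets and none of the 3. It was 5 without the high-ratio arrays (15.8% of all) and 5 with array quality weights (23% of all). For 5 days against 1 day at stage 53 the count was 0 in the fit on all arrays (0.121% of all). It was 4 in the fit on the groups compared (2.39% of all), 3 without the high-ratio arrays (3.19%) and 3 with array weights (7.13%). With single arrays left out it was 0 to 1 (0.043% to 0.792% of all). Averaged over days the count was 5 (16.6% of all), and 1 with the 50th percentile filter (18.9%). It was 3 without the high-ratio arrays (16.1%) and 2 to 5 with single arrays left out (11.9% to 21.9%). The counts at 1 day, at stage 57 between days and for the interaction were 0 under every alternative run. Where fewer probe sets or arrays entered, that is part of the alternative, and other causes were not tested. Leaving out the 3 arrays left 3 arrays of stage 57 at 5 days and 2 at 1 day. A signal of 97.1 is the low-signal cutoff and not a measure of background. No detection calls were used, so probe sets near or below it were not tested against background.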
